A study of Rattus norvegicus with 6 samples.

Results

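The respiratory chain genes described here were chosen by symbol, as genes named for subunits of complexes I to V. They are those starting with Ndufa, Ndufb, Ndufc, Ndufs or Ndufv, Sdha to Sdhd, Uqcr, Cox4 to Cox8 followed by a subunit letter, and Atp5. Ndufa4l2 and the Ndufaf assembly factors were left out. The rule found 89 nuclear genes, and the 13 protein-coding genes of the mitochondrial genome were set beside them, so that 102 of the 25399 genes listed were members. Complexes were assigned by symbol alone, so Ndufa4 is counted under complex I by name only. The inhibitor gene Atp5if1 and the supercomplex gene Cox7a2l are likewise counted with the complexes they are named for. Cox6c-ps1 and second identifiers of Uqcrb, Cox6b1 and Ndufv3 are counted too. By complex the nuclear members were 38 genes of complex I, 4 of complex II, 9 of complex III, 20 of complex IV and 18 of complex V. 2 members, Ndufa1 and Cox7b2, had no UMI in any kept cell, and 4 more (Atp5pb, Ndufa10l1, Cox8c and Cox6c-ps1) had between 1 and 99. Of the nuclear members, 73 passed the filter on low counts in each of the 4 cell classes compared and 9 passed it in none of those classes.

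The study holds 6 single-cell libraries of brain tissue from Sprague Dawley rats, made with the 10x Genomics 3′ V3.1 chemistry. 3 were labelled sham and 3 pontine infarction, a stroke of the brainstem. All 6 carried the age label of postnatal day 21. No source used here gives the time between infarction and sampling or says whether each library came from 1 rat, so p-values measure the spread between libraries, which may be technical.

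The respiratory chain sits in the inner mitochondrial membrane. Complexes I and II take electrons from the breakdown of nutrients, complex III passes them on to cytochrome c, complex IV hands them to oxygen, and complex V uses the resulting proton gradient to make ATP. Its subunits come from both genomes: complexes I, III, IV and V mix mitochondrially and nuclear encoded proteins, whereas complex II is wholly nuclear. In the brain, neurons and contractile vessel cells are known for a high demand for oxidative energy, and activated myeloid cells for a shift in how they use it.

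Total counts ranged from 56416475 to 69924334 UMIs per library. Of 44011 barcodes, 37810 cells were kept and fell into 29 clusters, which were named from marker genes as, for example, microglia-like. The members took no part in the clustering. Between 8 and 21 barcodes were shared by any pair of libraries. The groups differed in their cells: the sham libraries held 2680, 2187 and 2713 smooth muscle-like cells beside 0, 0 and 1 in the infarction libraries, and pericyte-like cells 1636, 1516 and 732 against 3, 6 and 4. Monocyte-like cells numbered 4, 22 and 1 in the sham libraries and 1110, 890 and 784 in the infarction libraries. Because of this, groups were compared within each class that had at least 20 cells in every library: microglia-like, macrophage-like, T or NK-like and endothelial-like cells.

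Among the classes with at least 20 cells in 2 or more sham libraries, the summed nuclear members took the largest share of UMIs in neuron-like, smooth muscle-like, choroid plexus-like and pericyte-like cells and the smallest in microglia-like and astrocyte-like cells. Neutrophil-like cells, with enough cells in sham 2 alone, stood lower there at 1.49%. The share was 4.62% ± 0.743 (SD, n = 3) of all UMIs in neuron-like cells and 4.31% ± 0.0278 (SD, n = 3) in smooth muscle-like cells. Choroid plexus-like cells stood at 4.28% ± 0.23 (SD, n = 2 libraries with enough cells), and pericyte-like cells at 4.17% ± 0.337 (SD, n = 3). These 4 classes lie within one another's spread. Oligodendrocyte precursor-like cells followed at 3.29% ± 0.529 (SD, n = 3). Endothelial-like (2.41% ± 0.149), fibroblast-like (2.41% ± 0.0299), T or NK-like (2.18% ± 0.0704) and macrophage-like cells (2.08% ± 0.0319, SD, n = 3 each) lay close together. Microglia-like cells stood at 1.67% ± 0.0592 and astrocyte-like cells at 1.67% ± 0.0895 (SD, n = 3), and these do not differ beyond their spread. Classes were built from these cells, so their order is a description without a test.

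Single members were ranked over the 10 classes with at least 20 cells in every sham library, which leaves out choroid plexus-like cells. Of 83 nuclear members at 1 CPM or more in one of these (CPM, counts scaled to the UMI total of the class in that library), 41 had their highest mean in neuron-like cells, 19 in smooth muscle-like and 11 in pericyte-like cells. Of the 41 highest in neuron-like cells, 18 had all libraries above those of the next class. Neuron-like cells were few, at 32, 29 and 168 in sham 1 to 3, with median depths of 2756, 3749 and 3174 UMIs. The mitochondrially encoded genes followed a different order. Their summed share was 12.4% ± 0.957 in smooth muscle-like, 11.8% ± 1.95 in neuron-like and 9.67% ± 0.856 in pericyte-like cells, and 5.50% ± 0.277 in microglia-like cells (SD, n = 3 each). Astrocyte-like cells, at the bottom of the nuclear order, reached 10.1% ± 0.535 (SD, n = 3). Across the 10 classes present in every sham library the 2 shares went together with Pearson's r = 0.775. This is a description over classes that share libraries and differ in depth.

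**Figure D1:**
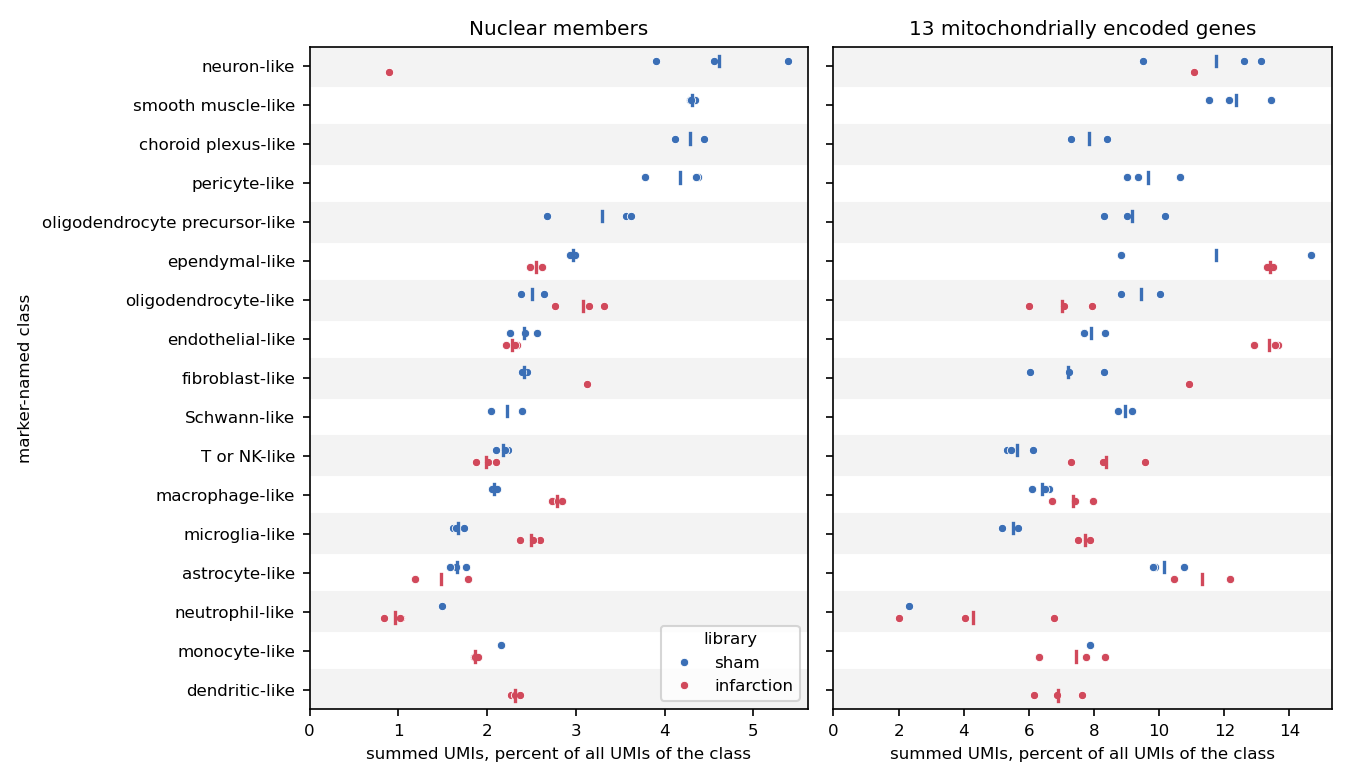
Summed UMIs of the nuclear members (left) and of the 13 mitochondrially encoded genes (right), as percent of all UMIs of a class, for each library with at least 20 cells of it; points are libraries, bars are group means. Nuclear shares are higher in the infarction than in the sham libraries in microglia-like and macrophage-like cells, and the mitochondrial share is higher after infarction in endothelial-like cells.

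Among the classes found mainly after infarction, the nuclear share was 0.963% ± 0.107 in neutrophil-like cells, 1.87% ± 0.0254 in monocyte-like cells and 2.32% ± 0.0563 in dendritic-like cells (SD, n = 3 infarction libraries each), the lowest of the 3 being that of neutrophil-like cells. Their median depth was also low, 1932 UMIs per cell in their main cluster. Over all cells of a library, the nuclear share was 3.98%, 3.77% and 3.399% in sham 1 to 3, above the 2.33%, 2.54% and 2.55% of infarction 1 to 3. The mitochondrial share was 9.73%, 10.3% and 10.1% in sham 1 to 3, above the 6.51%, 8.07% and 7.52% of infarction 1 to 3. In the sum over all cells, 15 of the 82 nuclear members tested rose and 35 fell by edgeR's quasi-likelihood test with Benjamini-Hochberg adjustment (adjusted p under 0.05), where 33.3% of all genes tested rose and 38.1% fell. That sum cannot separate a change within cells from the change in the mix of cells, and with the library total in place of the TMM factors (edgeR's scaling to a trimmed mean) the counts became 3 and 61, the median of all genes moved from -0.13 to -0.60, and the share of risen among all called genes from 46.6% to 30.1%. Among the members Cox6a2 rose by 2.68 and Cox5a by 1.42 over all cells, and Atp5me fell by 1.55 and Sdhc by 1.03, with none of these 4 directions turned by the scaling. Of the 13 mitochondrial genes, 2 rose and 5 fell over all cells with the TMM factors, beside the shares of all genes given above.

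Within microglia-like cells, nuclear members of every complex rose after infarction. The summed nuclear share stood at 1.62%, 1.73% and 1.65% in the sham libraries. It reached 2.60%, 2.52% and 2.37% in the infarction libraries, so the groups do not overlap. By edgeR's test, 63 of 80 tested members rose and 3 fell, against 31.7% of all genes tested rising and 31.8% falling. The median log2 fold change of the members was 0.50, beside -0.04 for all genes tested. Sham cells lay mostly in a cluster led by Tmem119, P2ry12 and Cst3, and infarction cells mostly in one led by Ccl4, Tnfsf9 and Cd83 with Mki67 and Top2a among its leading genes. Mki67, a gene of dividing cells, stood at 7.90, 0.993 and 8.15 CPM in sham and 303.8, 194.1 and 232.5 CPM in infarction microglia-like cells. Without the cells that held a UMI of any of 6 cell cycle genes, 42 of the 63 risen members were still called as risen and the median log2 fold change was 0.30. In those cells the nuclear share was 1.62%, 1.74% and 1.64% in sham libraries against 2.32%, 2.23% and 2.06% after infarction.

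Complex I, which takes electrons from NADH, had 29 members risen and 1 fallen of 35 tested. Its largest rise was that of Ndufab1, the mitochondrial acyl carrier protein that also serves as a complex I subunit, at 66.9, 52.8 and 60.8 CPM (scaled by TMM, as are all CPM values beside a fold change) in sham 1 to 3. In infarction 1 to 3 it stood at 241.9, 192.6 and 184.7 CPM. The groups are well apart, with a log2 fold change of 1.79 (SE 0.13, edgeR adjusted p = 1.86e-06). Ndufa12, an accessory subunit, went from 90.0, 112.5 and 98.4 to 234.7, 231.7 and 203.7 CPM, again without overlap (log2 fold change 1.15, SE 0.10, edgeR adjusted p = 3.66e-06). The lowest was Ndufb4, a membrane arm subunit, at 117.4, 118.8 and 106.6 CPM in sham and 102, 90.2 and 78.4 CPM in infarction. It fell by 0.33 on the log2 scale (edgeR adjusted p = 0.0156), a call that was lost without sham 2, infarction 2 or infarction 3 (edgeR adjusted p from 0.0549 to 0.0768).

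Complex II, succinate dehydrogenase, had 3 of 4 members risen. Sdhd, a membrane anchor, rose by 0.75 and Sdhc, the other anchor, by 0.40 on the log2 scale, and Sdhb, the iron-sulphur subunit, by 0.21 (edgeR adjusted p = 3.24e-05, 0.00402 and 0.0198). Sdha, the flavoprotein that holds the succinate site, was at 56.1, 66.3 and 61.7 CPM in sham and 63.1, 61.7 and 56.7 CPM in infarction, with overlapping groups and a log2 fold change of -0.03 (SE 0.09). In complex III, 8 of 9 members rose. Uqcrfs1, the Rieske iron-sulphur protein, went from 99.5, 100.4 and 99.1 to 197.4, 181.2 and 166.8 CPM (log2 fold change 0.87, edgeR adjusted p = 7.57e-06). Uqcrq, a small accessory subunit, rose by 0.87 as well (edgeR adjusted p = 8.54e-06). The highest fold of the complex, 1.17, was that of a second identifier of Uqcrb (ENSRNOG00000032204). Its reads may be shared with the other identifier of that symbol and are uncertain. Uqcr10 did not pass the test (log2 fold change -0.06).

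Complex V, the ATP synthase, had 12 of 17 members risen and none fallen. The c-ring, the rotor that protons turn, is encoded by several genes with one mature product. Atp5mc3 stood at 97.1, 105.3 and 128.3 CPM in sham and 283.7, 239.6 and 244.4 CPM in infarction, without overlap (log2 fold change 1.20, SE 0.11, edgeR adjusted p = 9.32e-06). Atp5mc1 rose by 0.97 (edgeR adjusted p = 3.39e-06), whereas Atp5mc2 was at 565.2, 630.3 and 630.9 against 673.1, 660.5 and 692.8 CPM and did not pass (log2 fold change 0.15, adjusted p = 0.0947). Atp5f1b, the catalytic beta subunit, rose by 0.69 (edgeR adjusted p = 1.68e-05). Atp5if1, which inhibits the enzyme when the gradient collapses, rose by 0.54 (edgeR adjusted p = 0.000593). Atp5me and Atp5f1e did not pass (log2 fold changes -0.02 and 0.17).

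Complex IV, cytochrome c oxidase, held both the largest rise and most of the falls. Of 15 members tested 11 rose and 2 fell. Cox5a, a subunit on the matrix side, was at 198.5, 210.2 and 207.2 CPM in sham and 508.8, 517.8 and 483.7 CPM in infarction, far outside the spread of either group (log2 fold change 1.29, SE 0.07, edgeR adjusted p = 2.13e-07). Cox7b, Cox5b and Cox8a, further nuclear subunits, rose by 0.93, 0.87 and 0.82. Cox7a2l, which links complexes III and IV into a supercomplex, went the other way, from 345.1, 396.3 and 383 to 238.8, 248.7 and 260.8 CPM. Its groups do not overlap, and it fell by 0.59 (edgeR adjusted p = 8.18e-05). Cox6b2, the paralogue of Cox6b1 known from testis, fell by 0.73, from 20.7, 22.6 and 18.9 to 12.3, 13.9 and 11.2 CPM (edgeR adjusted p = 0.000743), while Cox6b1 rose by 0.43 (adjusted p = 0.00391).

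Cox6a2, the paralogue of Cox6a1 known from heart and skeletal muscle, rose most of all members in microglia-like cells. It stood at 5.19, 2.19 and 2.96 CPM in sham 1 to 3. It stood at 160.9, 114 and 139.2 CPM in infarction 1 to 3. The groups are far apart, with a log2 fold change of 5.52 (SE 0.23, edgeR adjusted p = 2.69e-07). Cox6a1 rose over the same cells from 346, 367.6 and 351.6 to 741.9, 787.2 and 737.7 CPM (log2 fold change 1.09, SE 0.07, edgeR adjusted p = 5.67e-07). Each UMI is a 3′ tag of 1 transcript, so the pair can be set side by side without a length, though capture may differ between the genes. Cox6a2 made up 0.969% ± 0.456 of the UMIs of the pair in sham and 15.5% ± 2.61 in infarction microglia-like cells (SD, n = 3 each).

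At the level of single cells, Cox6a2 was spread over many microglia-like cells. With every cell thinned to 2000 UMIs, a Cox6a2 UMI was seen in 0.952%, 0.12% and 0.514% of sham and in 23.0%, 16.7% and 17.1% of infarction microglia-like cells. 93, 293 and 375 sham cells and 33, 99 and 52 infarction cells were too shallow to be thinned. The unthinned shares were 1.47%, 0.977% and 1.27% against 53.0%, 33.6% and 36.9%, at median depths of 4943, 5103 and 5291 against 16823.5, 7625.5 and 8581 UMIs. Macrophage-like cells of the infarction libraries, at median depths of 16521, 12768 and 15452 UMIs, had thinned shares of 0.612%, 0.292% and 0.295%. None of the T or NK-like cells of any library held a Cox6a2 UMI; their median depths ran from 4216 to 5749 UMIs, and the thinned counts allow shares of up to 2.21% in sham 2 and up to 5.36% in infarction 1, the best and the least covered. These limits concern cells with a UMI and not cells expressing the gene. The thinned shares of infarction microglia-like cells lie above those of macrophage-like cells in the same libraries.

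The Cox6a2 signal was not confined to cells in which a cell cycle UMI was seen. In infarction microglia-like cells with a cell cycle UMI it stood at 161.1, 109.8 and 169.7 CPM, and in those without one at 169.8, 123.7 and 90.4 CPM. These ranges overlap. The infarction cells that fell in the cluster holding most sham microglia, 9, 68 and 62 cells, had 0, 63.8 and 32.7 CPM. An unnamed shallow cluster with microglia markers, led by Cox6a2 and Cdk1, had 246.5, 167.7 and 251.7 CPM in the infarction libraries.

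Genes beside Cox6a2 in the RefSeq order of rat assembly GRCr8 were then looked up, a choice made after its values were seen. Itgad, the integrin gene next to it, was at 48.8, 36.3 and 38.0 CPM (unscaled by TMM, as are the values that follow) in sham and 39.8, 35.7 and 44.1 CPM in infarction microglia-like cells, with overlapping groups. Armc5, on the other side beyond a gene that is not analysed here, was at 42.3, 35.6 and 38.7 against 43.3, 38.3 and 40.1 CPM, also overlapping. Itgax, the integrin CD11c and 1 gene further on, was at 0.465, 1.49 and 4.12 CPM in sham and 67.9, 61.9 and 57.3 CPM in infarction. Itgax was high without Cox6a2 in dendritic-like cells of the infarction libraries, at 86.9, 58.0 and 72.8 CPM beside 2.32, 1.71 and 1.01 CPM of Cox6a2. Trim72, beyond Itgax and a further gene that is not analysed here, was low throughout. It stood at 0, 0.331 and 0.805 CPM in sham and 7.49, 6.42 and 7.57 CPM in infarction microglia-like cells, without overlap. Itgax and Trim72 were thus higher with Cox6a2 in microglia-like cells, while Itgad and Armc5 overlapped. Neither Itgax nor Trim72 went with Cox6a2 in every class. In macrophage-like cells Trim72 was at 1.131, 0.9057 and 0 CPM in sham and 7.377, 4.089 and 3.865 CPM in infarction. Cox6a2 was there at 3.392, 19.02 and 2.417 CPM in sham and 1.182, 1.601 and 1.327 CPM in infarction.

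Promoters are shown for Cox6a2, Cox5a and Ndufab1, the members with the highest fold in microglia-like cells among those of complexes IV and I. Each is the 250 bases before the start that RefSeq gives on GRCr8, written 5′ to 3′ on the gene's strand, with motif matches in capitals: chr1:192219717-192219966 on the minus strand for Cox6a2, chr8:66818034-66818283 on the plus strand for Cox5a and chr1:186089337-186089586 on the minus strand for Ndufab1.
Cox6a2: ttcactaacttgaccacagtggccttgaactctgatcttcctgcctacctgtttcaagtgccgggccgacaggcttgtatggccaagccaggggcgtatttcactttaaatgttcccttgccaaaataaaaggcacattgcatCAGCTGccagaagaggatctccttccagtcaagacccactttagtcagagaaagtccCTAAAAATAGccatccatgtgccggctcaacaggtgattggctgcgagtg
Cox5a: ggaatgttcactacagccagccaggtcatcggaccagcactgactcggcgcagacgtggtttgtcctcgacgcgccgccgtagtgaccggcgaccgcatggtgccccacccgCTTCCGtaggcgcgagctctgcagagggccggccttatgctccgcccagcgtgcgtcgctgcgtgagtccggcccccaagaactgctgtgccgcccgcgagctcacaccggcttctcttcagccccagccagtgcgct
Ndufab1: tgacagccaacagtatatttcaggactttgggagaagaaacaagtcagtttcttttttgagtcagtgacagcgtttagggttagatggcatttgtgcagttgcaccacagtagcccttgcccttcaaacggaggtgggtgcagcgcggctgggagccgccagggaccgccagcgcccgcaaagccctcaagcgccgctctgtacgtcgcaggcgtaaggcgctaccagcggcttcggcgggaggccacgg

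The Cox6a2 window holds an E-box, CAGCTG, of the kind read by myogenic and other helix-loop-helix factors, and an A/T box of the MEF2 type. The Cox5a window holds CGGAAG, the core read by GABP and other ETS factors, on the opposite strand. Neither motif family nor the others searched were matched in the Ndufab1 window. Motifs were chosen with the sequences known and searched on both strands, and 73 of 86 nuclear symbols had a promoter in the table. CGGAAG was in 43.8% of the members' windows and in 13.9% of 33469 windows of the same length, and GCATGCG, the NRF-1 core, in 15.1% and 2.93%. AAGATGG, a YY1-like motif, was in 5.48% and 4.62%, CAGCTG in 12.3% and 11.97%, and the MEF2-type box in 2.74% (Cox5b and Cox6a2) and 3.41%. The search for the MEF2-type box allowed any base at its middle positions, so the windows counted need not hold an A/T core. Its 2 percentages are therefore not rates of A/T boxes like that of Cox6a2. A match is a run of letters and not a bound site.

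In macrophage-like cells the nuclear members rose as well. The summed share of 2.07%, 2.05% and 2.11% in sham libraries compares with 2.73%, 2.80% and 2.84% after infarction, without overlap. By edgeR's test 68 of 80 members rose and 4 fell, where 28.6% of all genes tested rose and 27.1% fell. The members' median log2 fold change was 0.86 and that of all genes -0.01. By complex 30 of 35 rose in complex I, 4 of 4 in complex II, 9 of 9 in complex III, 10 of 15 in complex IV and 15 of 17 in complex V. The scaling matters here, since TMM factors were 1.10 to 1.19 in sham and 0.867 to 0.880 in infarction: with the library total alone, the median of all genes moved to -0.41, the members' median to 0.47, and 52 rose and 7 fell. The share of risen among all called genes moved with it, from 51.3% to 31.4%. The groups also differed in the kind of cell, as sham cells lay in a cluster led by Cxcl13, Fcmr and Lyve1 and infarction cells in clusters led by Apoc1, Apoe and Spp1 or by Mmp12 and RT1-Da.

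The members that led the rise were largely those of microglia-like cells. Ndufab1 stood at 55.5, 48.5 and 44.6 CPM in sham and 221.8, 202 and 200.9 CPM in infarction macrophage-like cells (log2 fold change 2.07, SE 0.12, edgeR adjusted p = 4.90e-08). Cox5a went from 215.9, 254.7 and 245.5 to 784.8, 832.6 and 796.8 CPM (log2 fold change 1.75, SE 0.10, edgeR adjusted p = 4.34e-08). In both the groups are far apart. Atp5mc3 rose by 1.63 and Uqcrfs1 by 1.55 (edgeR adjusted p = 1.87e-07 and 2.75e-07). In complex I, Ndufb6 rose by 1.46, and Ndufa6 and Ndufs8 were the least changed of those called, at 0.36 and 0.41. In complex II, Sdhc and Sdhd led with 0.90 and 0.85. Cox5b, Cox6a1, Cox6b1, Cox8a and Cox4i1 of complex IV rose by 1.15, 1.12, 0.94, 0.90 and 0.89. In complex V, Atp5f1c, the central stalk subunit, rose by 1.22, Atp5mc1 by 1.15, Atp5mc2 by 0.45 and Atp5f1e by 0.41. Of the genes counted under complex I, Ndufa13, Ndufa4, Ndufa5, Ndufb10 and Ndufv3 did not pass, with log2 fold changes between 0.02 and 0.23.

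All 4 falls in macrophage-like cells were in complex IV. Cox7a2l fell by 0.47, from 416, 493 and 413.8 to 306.1, 315.5 and 331.8 CPM (edgeR adjusted p = 0.00163). Cox4i2, the paralogue of Cox4i1 known from lung and vessels, was at 19.8, 35.3 and 10.1 CPM in sham and 0.382, 0.0787 and 0.230 CPM in infarction (log2 fold change -6.61, edgeR adjusted p = 1.89e-06). Tagln, a smooth muscle transcript that macrophages are not known for, was at 1020, 498 and 839 CPM in the same sham cells and at 0.757, 0.716 and 4.12 CPM in the infarction cells. The 12 smooth muscle markers fixed for naming summed to between 1106 and 2189 CPM in sham and between 0.993 and 10.6 CPM in infarction, and their part in the Cox4i2 result was not tested. Cox6b2 fell by 3.39 (edgeR adjusted p = 0.00433) and Cox6a2 by 2.31 (adjusted p = 0.00908). Sham 2, where Cox6a2 came from 2 cells, decided the Cox6a2 value: without that library its log2 fold change was -0.60 (adjusted p = 0.51). The Cox6b2 call was also lost without sham 2, at a log2 fold change of -2.82 (adjusted p = 0.0931).

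**Figure D2:**
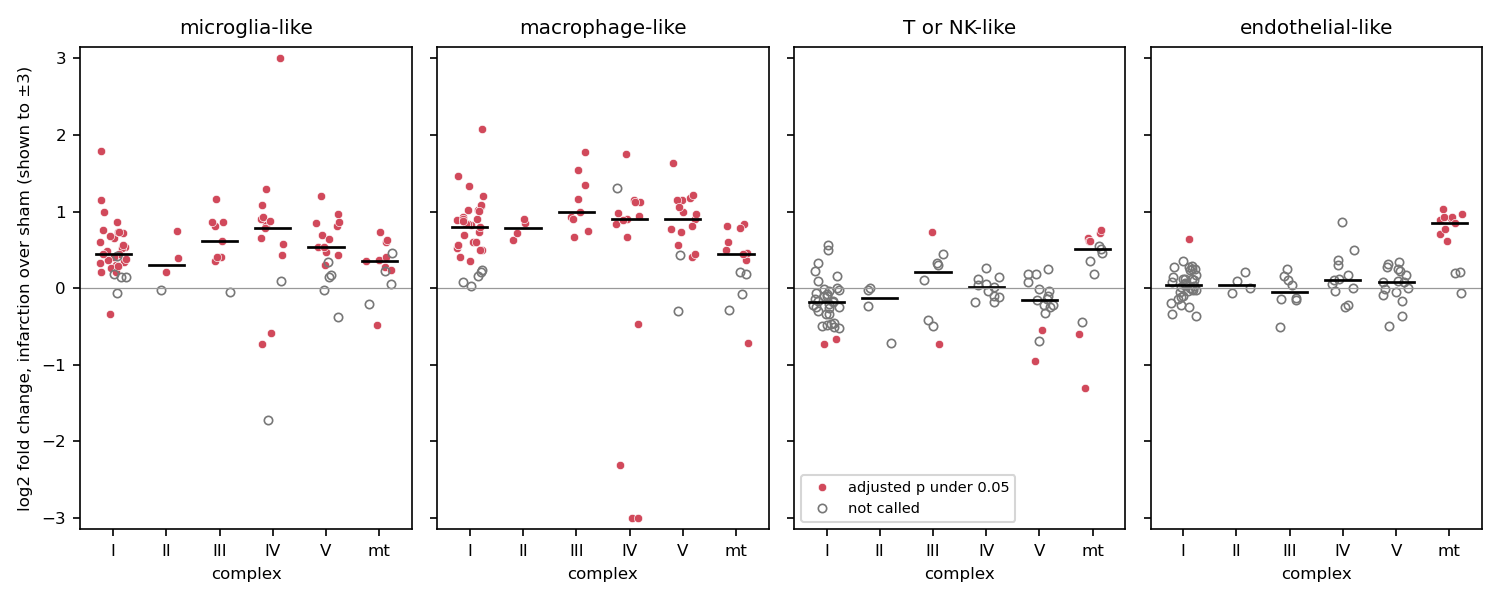
log2 fold change of infarction over sham for each tested member, by complex, in the 4 classes compared; filled points passed edgeR's test at an adjusted p under 0.05, bars are medians, and values past 3 are drawn at the limit. In microglia-like and macrophage-like cells most nuclear members lie above 0, while in endothelial-like cells the nuclear members lie around 0 and the mitochondrial genes above it.

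In T or NK-like cells the nuclear members showed few called changes. The summed share was 2.24%, 2.10% and 2.20% in sham libraries and 1.87%, 2.005% and 2.10% after infarction, and the groups overlap narrowly. Of 73 members tested 1 rose and 5 fell, where 5.16% of all genes tested rose and 3.36% fell. The median log2 fold change was -0.12 beside -0.02 for all genes. These cells were few, between 65 and 141 per library. Atp5me, subunit e of the membrane part of the ATP synthase, was at 370.6, 330.8 and 366.5 CPM in sham and 207.5, 185.5 and 161.4 CPM in infarction (log2 fold change -0.95, SE 0.16, edgeR adjusted p = 0.000404). Uqcrq was at 362.4, 384.5 and 369 against 207.5, 235.9 and 226.6 CPM (log2 fold change -0.73, edgeR adjusted p = 0.00314). Neither gene's groups overlap, and these 2 falls held when any 1 library was left out. In the same cells the 12 smooth muscle markers summed to between 786.5 and 1118 CPM in sham and between 2.99 and 8.58 CPM in infarction, and Spp1, a transcript of activated macrophages, was at 2.07, 1.23 and 0 against 397.7, 266.4 and 180.3 CPM. The part of these transcripts in the falls was not tested. Ndufa3, Ndufb4 and Atp5f1e fell by 0.73, 0.67 and 0.54 and Uqcrfs1 rose by 0.74 (edgeR adjusted p = 0.0377, 0.0262, 0.0497 and 0.0158), and each of these calls was lost without at least 3 of the 6 libraries in turn. The abundant complex IV genes Cox4i1, Cox6a1, Cox6b1, Cox7a2l and Cox8a did not pass, at 0.14, -0.10, 0.05, 0.12 and 0.01. Without single libraries the count of falls ranged from 2 to 4 and that of rises from 0 to 3.

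In endothelial-like cells the nuclear members hardly moved. The summed share of 2.26%, 2.42% and 2.56% in sham libraries overlaps the 2.21%, 2.33% and 2.31% after infarction. Of 74 members tested only Ndufa8, a complex I subunit of the intermembrane space, was called: it was at 199, 183.6 and 164.2 CPM in sham and 234.2, 287.8 and 327.7 CPM in infarction (log2 fold change 0.64, edgeR adjusted p = 0.0342). Of all genes tested 3.95% rose and 4.8% fell, and with the library total alone the share of risen among called genes moved from 45.1% to 30% and the median of all genes to -0.13, with 0 members risen and 2 fallen. The Ndufa8 call was lost without sham 1, 2 or 3 or infarction 2 or 3 (adjusted p from 0.0577 to 0.199). The infarction cells numbered 34, 40 and 72, with median depths of 4700.5, 3217 and 3487.5 UMIs beside 6579, 6968 and 6945 in sham.

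The mitochondrially encoded genes went another way in these last 2 classes. In endothelial-like cells they took 7.71%, 8.35% and 7.69% of UMIs in sham libraries. After infarction they took 12.9%, 13.7% and 13.6%, and 10 of 13 rose by edgeR's test (median log2 fold change 0.85), where 3.95% of all genes rose. Mt-nd1, a core subunit of complex I, was at 5243, 7196 and 6652 CPM in sham and 12680, 12490 and 14020 CPM in infarction (log2 fold change 1.04, SE 0.12, edgeR adjusted p = 6.90e-05). Mt-co2, the subunit of complex IV that receives electrons from cytochrome c, rose by 0.96 and Mt-co3, also of complex IV, by 0.93. Mt-nd4, Mt-nd2 and Mt-nd3 of complex I rose by 0.93, 0.91 and 0.85, Mt-atp6 of complex V by 0.89, Mt-cyb of complex III by 0.78, Mt-nd4l by 0.70 and Mt-co1 by 0.62. Mt-nd5, Mt-nd6 and Mt-atp8 did not pass (log2 fold changes 0.20, 0.20 and -0.06). The Mt-nd4l call was lost without sham 1, sham 2, infarction 1 or infarction 3 (adjusted p from 0.064 to 0.229).

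Set against the nuclear members, the mitochondrial genes gave 3.41, 3.45 and 3.01 UMIs per nuclear-member UMI in sham endothelial-like cells and 5.85, 5.86 and 5.87 in infarction. The infarction libraries lie close together and well above sham. A high mitochondrial share is also a common sign of damaged cells, and cells above 20% were removed, which caps the share in every class. Without that limit the difference in endothelial-like cells was 11.5 percentage points in place of 5.47, so the size is set in part by the filter. The part of cell damage in it was not tested. Markers of other cells moved in these cells too: the 14 macrophage markers summed to between 2870 and 4909 CPM in sham and between 7779 and 8896 CPM in infarction, and the 12 smooth muscle markers to between 1739 and 2568 against between 98.3 and 1220 CPM. Their part was not tested either.

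In T or NK-like cells the mitochondrial share ran to 5.32%, 5.46% and 6.14% in sham libraries and to 7.29%, 9.56% and 8.27% after infarction, without overlap. 5 of 13 genes rose and 2 fell, where 5.16% of all genes tested rose and 3.36% fell. Mt-co2 rose by 0.76, Mt-nd1 by 0.72, Mt-co1 by 0.66 and Mt-atp6 and Mt-co3 by 0.62 each (edgeR adjusted p from 0.00647 to 0.0306). Mt-atp8 fell by 1.301 and Mt-nd5 by 0.60 (edgeR adjusted p = 0.0165 and 0.0271). Mt-nd2, Mt-nd6, Mt-cyb, Mt-nd4 and Mt-nd3 were at 0.51, 0.55, 0.46, 0.36 and 0.19 and Mt-nd4l at -0.45, none past the test. Without infarction 2 none of the 5 rises was called, without sham 1 only 1 was, without sham 3 only 2 and without infarction 3 only 3. The 2 falls were not called without sham 3 or without infarction 3, and 1 of them was lost without sham 2 or infarction 2.

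In microglia-like cells 8 of 13 mitochondrial genes rose and 1 fell, where 31.7% of all genes tested rose and 31.8% fell. Their summed share was 5.18%, 5.64% and 5.68% in sham libraries and 7.51%, 7.77% and 7.87% after infarction. Mt-co1, the catalytic subunit of complex IV, was at 5758, 5314 and 5394 CPM in sham and 8454, 10750 and 8101 CPM in infarction (log2 fold change 0.73, SE 0.10, edgeR adjusted p = 0.000188). Mt-co2, Mt-nd1, Mt-atp6, Mt-nd2, Mt-cyb, Mt-co3 and Mt-nd5 rose by 0.63, 0.61, 0.41, 0.37, 0.36, 0.28 and 0.24. Of these, Mt-nd5 was called by a narrow margin (edgeR adjusted p = 0.0497) and lost without sham 1, sham 2, infarction 1 or infarction 2. Mt-nd4, Mt-nd6, Mt-nd3 and Mt-nd4l did not pass (0.22, 0.46, 0.05 and -0.21). Mt-atp8 fell by 0.48 (edgeR adjusted p = 0.0347) with overlapping groups, and the call was lost without sham 2, sham 3, infarction 2 or infarction 3. Without the cells holding a cell cycle UMI, 4 genes rose.

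In macrophage-like cells 8 of 13 mitochondrial genes rose and 1 fell, where 28.6% of all genes tested rose and 27.1% fell. The summed share reached 6.63%, 6.09% and 6.48% in sham libraries and 6.72%, 7.97% and 7.41% after infarction, so the groups are adjacent. Mt-co1 rose by 0.84, Mt-cyb by 0.81, Mt-co2 by 0.78, Mt-nd1 by 0.60, Mt-nd4 by 0.50, Mt-atp6 and Mt-co3 by 0.45 each and Mt-nd2 by 0.37. Mt-atp8 fell by 0.71 (edgeR adjusted p = 0.013), a call lost without any 1 of the sham libraries (adjusted p from 0.0531 to 0.113). Mt-nd5, Mt-nd3, Mt-nd6 and Mt-nd4l did not pass (0.22, 0.18, -0.08 and -0.29). With the library total alone 4 of the 8 rose and Mt-nd2 turned to -0.02. The Mt-nd2 call was also lost without infarction 2 or infarction 3 (adjusted p = 0.439 and 0.157), and that of Mt-co3 without infarction 2 (0.0748).

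Mt-atp8 was thus the mitochondrial gene that fell in 3 of the 4 classes, each time with neighbours that rose. Its reading frame overlaps that of Mt-atp6, and that of Mt-nd4l overlaps Mt-nd4, so how reads were divided between them is uncertain. Counts of Mt-atp8 were also far lower, at 24.99, 28.5 and 33.8 CPM in sham microglia-like cells.

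**Figure D3:**
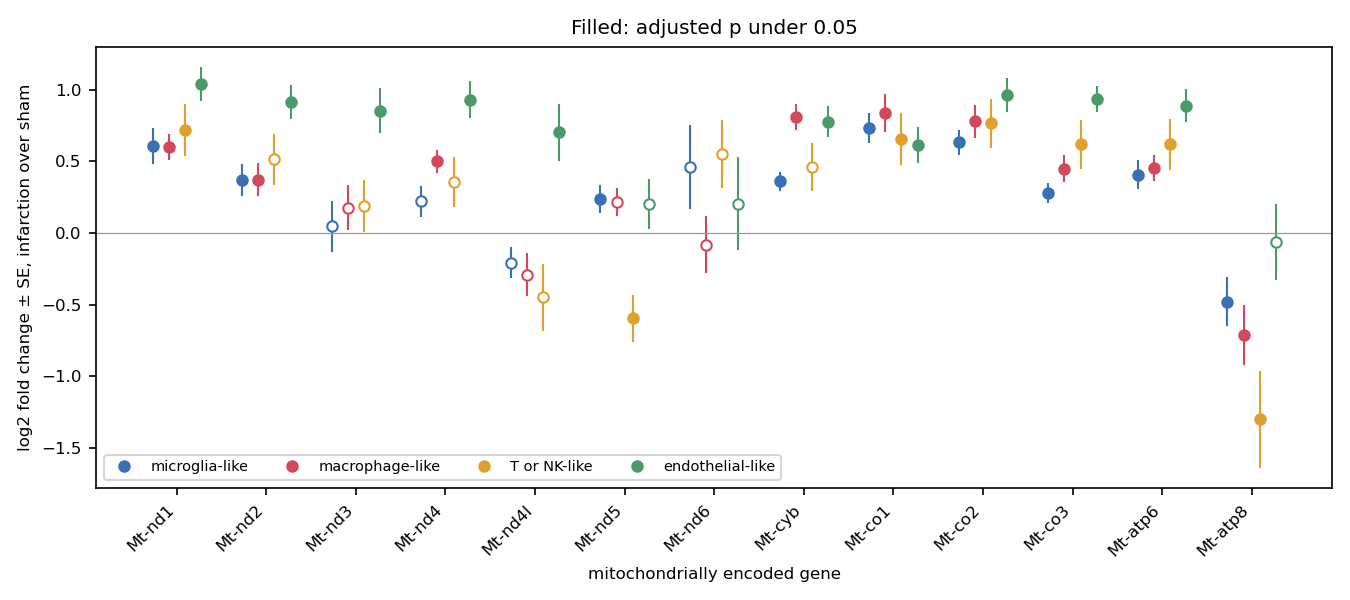
log2 fold change ± SE of infarction over sham for the 13 mitochondrially encoded genes in the 4 classes; filled points passed edgeR's test at an adjusted p under 0.05. In endothelial-like cells 10 of the 13 rose by 0.62 to 1.04, and Mt-atp8 lies below 0 in all 4 classes.

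The difference in response between classes was tested as an interaction in edgeR, with the library as a block and microglia-like cells as the common reference, so the 3 tests share those cells. T or NK-like cells had 38 of 77 nuclear members with a lower response than microglia-like cells and 1 with a higher one, where 9.55% and 7.62% of all genes tested differed in those directions. The median difference was -0.60 on the log2 scale beside 0.00 for all genes. The largest differences by adjusted p were those of Uqcrq (-1.49), Ndufa12 (-1.56), Cox6a1 (-1.09), Atp5mc1 (-1.08) and Uqcr11 (-1.02). Uqcrq fell in T or NK-like and rose in microglia-like cells, whereas Ndufa12 in T or NK-like cells was at 151.5, 155.7 and 150.6 against 88.9, 105.7 and 121.9 CPM and was not itself called (adjusted p = 0.0946). With the library total alone 44 were lower, the median of all genes moved to -0.15, and the share of higher among all genes called went from 44.4% to 30.2%. The count of 38 became 21 without infarction 1 and 19 without infarction 2. Of the 13 mitochondrial genes, 1 had a higher response than in microglia-like cells and 1 a lower one, with a median difference of 0.21.

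In endothelial-like cells 28 of 80 nuclear members had a lower response than in microglia-like cells and 1 a higher one, against 8.42% and 9.17% of all genes. 9 of the 13 mitochondrial genes had a higher response, with a median difference of 0.52. Ndufab1 had the smallest adjusted p among the nuclear members, with a difference of -1.60 (edgeR adjusted p = 1.62e-05). It stood at 107.1, 93.0 and 126.9 CPM in sham and 148.6, 66.9 and 120.3 CPM in infarction endothelial-like cells, with overlapping groups. Mt-co3, Mt-nd4, Mt-nd3 and Mt-atp6 responded more than in microglia-like cells by 0.75, 0.81, 0.91 and 0.57. The count of 28 was 17 without infarction 1. With the library total alone it was 50, the median of all genes moved from 0.05 to -0.20, and the share of higher among all genes called went from 52.2% to 32.0%.

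In macrophage-like cells 42 of 81 nuclear members had a higher response than in microglia-like cells and 4 a lower one, against 18.5% and 16.9% of all genes. This comparison turned with the scaling: with the library total alone 3 were higher and 23 lower, and the median difference of the members went from 0.35 to -0.12 as that of all genes went from 0.03 to -0.45. The share of higher among all genes called went from 52.2% to 17.6%. Of the 5 members with the smallest adjusted p, Ndufb4 differed by 1.29 (edgeR adjusted p = 1.73e-08) and by 0.82 with the library total (adjusted p = 1.85e-05). Uqcr10 and Cox6c differed by 0.85 and 0.78, and by 0.37 and 0.30 with the library total, all past the test. Ndufc2 and Atp5f1c differed by 0.77 and 0.72 and did not pass with the library total (adjusted p = 0.06 and 0.0681). Ndufb4 fell in microglia-like and rose in macrophage-like cells, where it went from 127.8, 108.5 and 105.5 to 239.7, 203.8 and 194.3 CPM.

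Complex IV has subunits with paralogues, and the rarer gene of each pair was set beside its partner by class. Cox4i2 was highest in pericyte-like cells, at 1274, 1323 and 1173 CPM in sham 1 to 3, where it made up 42.4% ± 1.68 of the UMIs of the Cox4 pair (SD, n = 3). In smooth muscle-like cells it was at 314.7, 366 and 366 CPM, or 16.8% ± 1.49 of the pair. Fibroblast-like cells followed at 259.5, 272.5 and 136.8 CPM, below every smooth muscle-like value, although their share of the pair, 19.6% ± 5.74 (SD, n = 3), overlaps. Over all cells Cox4i2 fell from 403.7, 350.9 and 291.3 to 2.18, 1.39 and 1.14 CPM (edgeR log2 fold change -7.32, adjusted p = 2.18e-05), beside the smooth muscle-like and pericyte-like cell counts given above. In microglia-like cells it was at 18.4, 14.3 and 5.21 against 5.53, 3.73 and 0.280 CPM and did not pass (log2 fold change -1.73, adjusted p = 0.13). There Tagln was at 530, 779 and 531 CPM in sham and 2.04, 2.18 and 3.14 CPM in infarction.

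Cox8b, the paralogue of Cox8a known from heart and muscle, was highest in choroid plexus-like cells, at 149.1 and 104.1 CPM in the 2 sham libraries with enough of them and 5.29% ± 0.878 of the pair. Cox6b2 was highest in fibroblast-like cells, at 95.1, 116.5 and 108.9 CPM and 26.6% ± 2.58 of the Cox6b pair (SD, n = 3). Oligodendrocyte precursor-like cells followed at 75.3, 70.4 and 43.3 CPM, below every fibroblast-like value. In microglia-like cells Cox6b2 went from 8.10% ± 0.583 of the pair in sham to 3.83% ± 0.601 in infarction (SD, n = 3 each). Cox7a1 was low, at 10.5, 12.6 and 3.61 CPM in sham oligodendrocyte precursor-like cells and at most 1.22 CPM over all cells of any library. It was also seen in sham neuron-like cells, at 7.29, 15.7 and 0 CPM. Those cells held 137264, 127645 and 758554 UMIs in sham 1 to 3, and Cox7a1 had 215 UMIs in all kept cells. The Cox7a1 values of both classes thus rest on few counts. In sham libraries Cox6a2 stood at 11.3, 13.4 and 12.5 CPM in smooth muscle-like cells and at 7.61, 12.3 and 6.24 CPM in astrocyte-like cells, and these overlap.

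**Figure D4:**
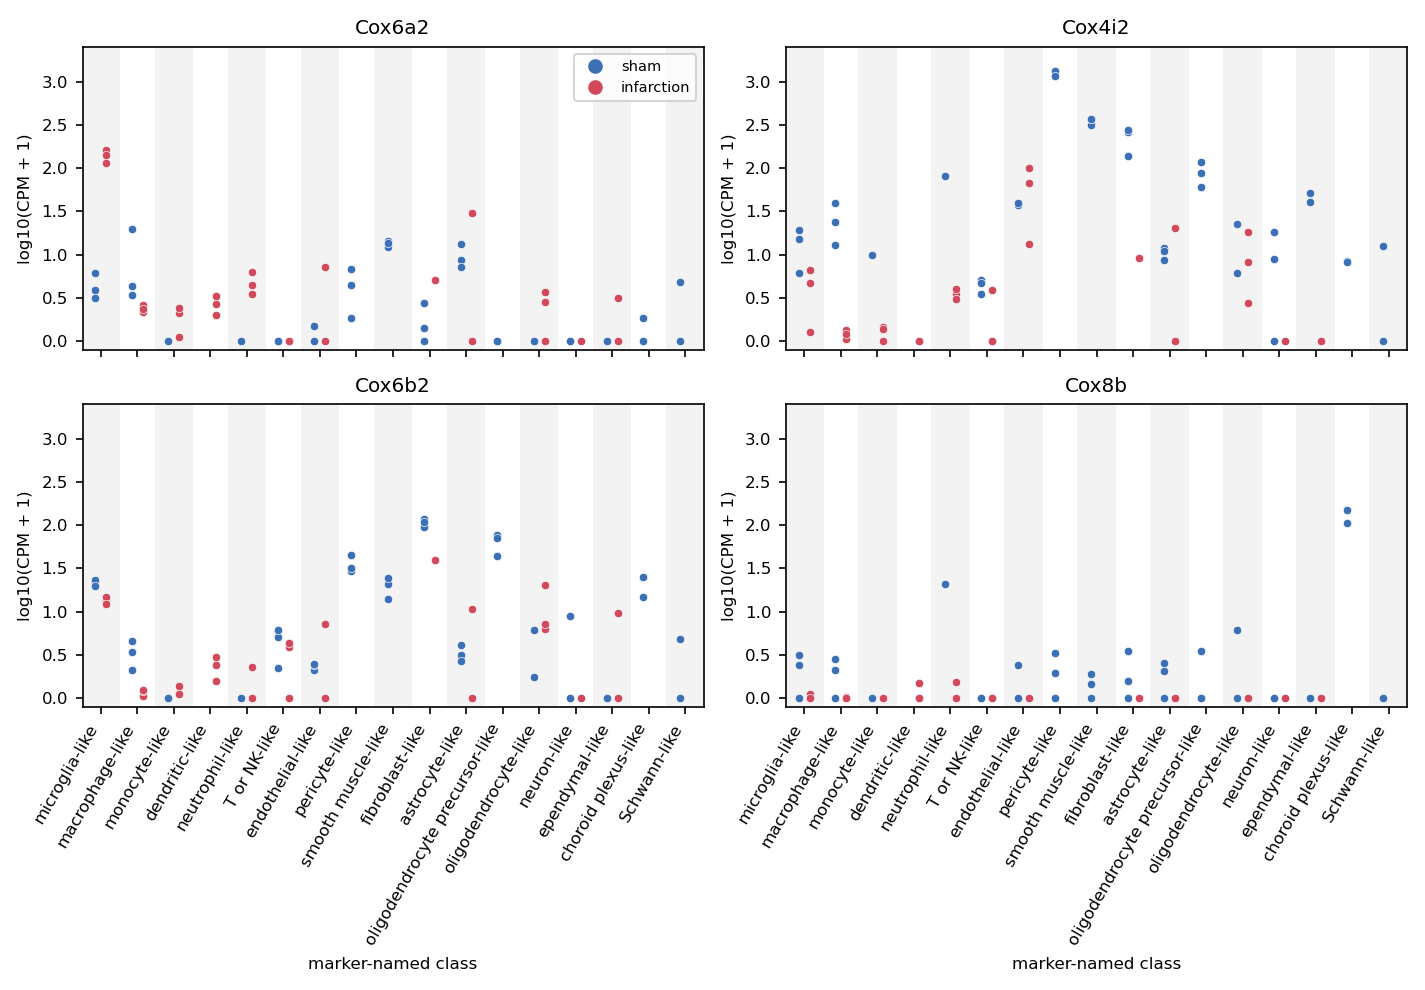
CPM of Cox6a2, Cox4i2, Cox6b2 and Cox8b by class and library on a log10(CPM + 1) axis; each point is a library with at least 20 cells of the class. Cox6a2 is highest in infarction microglia-like cells, Cox4i2 in pericyte-like, smooth muscle-like and fibroblast-like sham cells, Cox6b2 in fibroblast-like and oligodendrocyte precursor-like sham cells and Cox8b in choroid plexus-like sham cells.

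Lists of genes around the respiratory chain were counted in the same classes, to be read against the share of all genes tested. In microglia-like cells, where 31.7% of all genes rose and 31.8% fell, 61 of 74 mitochondrial ribosome genes rose and none fell (median 0.58), led by Mrps15 (1.42) and Mrpl12 (1.45). 18 of 22 import genes rose, among them Timm8a1 (2.93), a chaperone of the intermembrane space, and Hspd1 (1.87), the matrix chaperonin. Of 41 assembly factors 18 rose and 3 fell (median 0.25), with Ndufaf4 (0.92) and Bcs1l (1.51), factors of complexes I and III, leading. Of 16 citric acid cycle enzymes 10 rose and 1 fell, led by Suclg1 (0.72) and Dlst (1.05), and of 13 carriers and related genes 7 rose and 2 fell, led by Slc25a5 (1.09), the ADP/ATP carrier, and Higd1a (1.40). Of 22 regulators 8 rose and 4 fell (36.4% and 18.2%), a risen share near that of all genes, with Slirp (1.20), which stabilises mitochondrial mRNA, up and the transcription factor Yy1 down (-0.85). The cytosolic ribosome moved as widely, with 52 of 65 genes risen and 1 fallen (median 0.51), Rps2 (1.46) and Rpl10a (1.67) first.

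In macrophage-like cells, where 28.6% of all genes rose and 27.1% fell, 15 of 16 citric acid cycle enzymes rose and 1 fell, led by Mdh2 (1.35) and Dld (1.86). 63 of 74 mitochondrial ribosome genes (Mrpl17, 1.56, and Mrpl23, 1.21) and 19 of 23 import genes (Timm13, 1.42, and Timm17a, 1.58) rose, with none fallen in either list. Of 41 assembly factors 23 rose, with the complex IV factors Cox17 (1.14) and Coa3 (1.32) first, and of 13 carriers 9 rose and 3 fell, with Slc25a5 (1.65) and Slc25a3 (1.10) first. 9 of 22 regulators rose and 1 fell, led by Hif1a (1.87), the oxygen-sensing factor, and Esrra (1.26), a nuclear receptor of mitochondrial genes. 40 of 65 cytosolic ribosome genes rose and 4 fell, Rps2 (0.93) and Rpl10a (0.95) first.

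In T or NK-like cells, where 5.16% of all genes rose and 3.36% fell, each list held at most 3 called genes in a direction. Of 17 assembly factors 1 fell (Ndufaf8, -0.75). Of 10 carriers 1 rose (Slc25a3, 0.64) and 1 fell (Etfb, -1.44). Hif1a (1.79) rose among 9 regulators, Pdha1 (1.02) among 12 citric acid cycle enzymes and Tomm20 (0.59) among 18 import genes. Of 62 mitochondrial ribosome genes 2 rose (Mrps6, 1.15, and Mrpl32, 0.80), and of 64 cytosolic ribosome genes 1 rose and 3 fell, among them Rpl37a (-0.62) and Rps28 (-0.66). In endothelial-like cells, where 3.95% of all genes rose and 4.8% fell, none of 23 assembly factors, 11 carriers or 13 citric acid cycle enzymes passed. Hif1a (1.43), Hspd1 (0.74), Hspe1 (1.22) and Mrpl42 (1.28) rose there and Yy1 (-1.01) and Mrps26 (-1.48) fell, while 11 of 63 cytosolic ribosome genes rose (17.5%), among them Rps2 (0.81).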

How the data were processed

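The deposited files give unnormalised UMI counts, one matrix of genes by barcodes for each of 6 libraries. Per the submitters' processing notes, the authors used CASAVA 1.8, Cell Ranger 3.1.0 and Seurat 2.3.4; the genome build is not given in the sources used here. The matrices already held called cells (lowest barcode 500 UMIs). Cells with at least 500 UMIs, 200 genes and at most 20% mitochondrial UMIs were kept; 4785 barcodes exceeded that limit. Doublets scored above 0.25 with the Scrublet method of scanpy 1.11.5 (1.69% to 2.77% per library) were removed, because its automatic caller marked as little as 0.0231% of a library. Counts were reduced to 2000 variable genes without the members and 30 principal components and clustered with Leiden at resolution 1.0. A cluster took the class with the most markers, at least 3, each in 25% of cells and 1 log2 unit above the rest. Clusters with fewer markers stayed unnamed, as did a mostly infarction cluster with 7 microglia markers, set aside as shallow (median 2457 UMIs). Other shallow clusters were named, among them a mostly sham microglia-like one with a median of 998 UMIs. All 63 nuclear members risen in microglia-like cells stayed risen with the former cluster added or the latter left out. With the members among the variable genes, 88.0% of cells kept their class.

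Counts were summed per library and class and tested with edgeR 4.0.16 (glmQLFit, robust; TMM; filterByExpr), with Benjamini-Hochberg adjustment over all genes tested and a call at 0.05. The scripts were tested on simulated data. Named genes were, per class and complex, the 2 highest and 2 lowest called members with at least 20 CPM, the 13 mitochondrial genes, the paralogue pairs, the 2 genes of smallest p in each list and the 5 members of smallest adjusted p for each difference; single others are named where a count turns on them. Members and lists were chosen with earlier results of these data known. Intervals and limits cover counting error only, at 95%, and a count of 0 allows up to 3 counts. Alternatives were DESeq2 1.42.0, other scalings, filters and cell sets, a replicate block and leaving out each library. RefSeq tables (GRCr8) gave promoters and gene order. Cox7a2, Ndufs6 and Ndufb1 were not analysed here.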

Additional observations from a re-analysis of the deposited data

Results flagged for a closer look

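The members below responded to infarction differently in another class than in microglia-like cells, by edgeR's interaction test with Benjamini-Hochberg adjustment over all genes. Values are differences of log2 fold changes.

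T or NK-like cells responded less than microglia-like cells in Uqcrq (-1.49, adjusted p = 2.63e-07), Ndufa12 (-1.56, 1.82e-06), Cox6a1 (-1.09, 2.85e-05), Atp5mc1 (-1.08, 0.000111) and Uqcr11 (-1.02, 0.000272). Endothelial-like cells responded more in the mitochondrially encoded Mt-co3 (0.75, adjusted p = 9e-07), Mt-nd4 (0.81, 1.5e-06), Mt-atp6 (0.57, 2.08e-05) and Mt-nd3 (0.91, 2.24e-05) and less in the nuclear gene Ndufab1 (-1.6, 1.62e-05).

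Macrophage-like cells responded more in Ndufb4 (1.29, adjusted p = 1.73e-08), Uqcr10 (0.85, 1e-06), Cox6c (0.78, 2.41e-06), Atp5f1c (0.72, 1.31e-05) and Ndufc2 (0.77, 2.66e-05). With the library total alone as scaling, Atp5f1c and Ndufc2 no longer passed (0.24 and 0.29, adjusted p = 0.0681 and 0.06).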

How the results depend on the processing

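Leaving aside single libraries, 174 of 228 counts and summed levels stayed within 1.5 times or 1 SD of the reported value and 54 moved. The macrophage-minus-microglia counts of nuclear genes turned from mostly higher to mostly lower with the library total alone. Of 2493 values of named genes, 2264 kept their call or stayed uncalled, 165 lost a call and 57 gained one. Values uncalled in both fits were counted as kept whatever their direction. The other 7 turned direction with a call in at least 1 of the 2 fits, in each case with the library total alone. Over all cells these were Atp5f1e (-0.15), Cox6a1 (-0.39), Cox6b1 (-0.0081), Ndufa8 (-0.17), Ndufs4 (-0.19) and Uqcrb (ENSRNOG00000032204) (-0.0167). In macrophage-like cells it was Mt-nd2 (-0.0234). The causes were not tested. T or NK-like and endothelial-like cells were few per library, which limits their precision. The alternative without microglia clusters led by cell cycle genes was not run, since 1 cluster held most infarction microglia, nor that at 10% mitochondrial UMIs in endothelial-like cells, where a library had 4 cells.

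With the library total alone, over all cells 3 nuclear genes rose and 61 fell and 0 mitochondrial genes rose and 9 fell. In macrophage-like cells 7 nuclear genes fell and 4 mitochondrial genes rose and 2 fell, and against microglia-like cells 3 nuclear genes were higher and 23 lower and 0 mitochondrial higher and 10 lower. In endothelial-like cells 0 nuclear genes rose and 2 fell, and against microglia-like cells 0 were higher, 50 lower and 1 mitochondrial gene lower. In microglia-like cells 0 mitochondrial genes fell. All-gene medians shifted to -0.60 over all cells, -0.41 in macrophage-like and -0.13 in endothelial-like cells.

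With DESeq2, T or NK-like cells had 0 nuclear rises, 2 falls and 0 mitochondrial falls, and microglia-like cells 0 mitochondrial falls. With no filter on low counts, T or NK-like cells had 2 nuclear and 1 mitochondrial falls, endothelial-like cells 0 nuclear rises and 2 falls, and all cells 1 mitochondrial rise.

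At 10% mitochondrial UMIs, T or NK-like cells had 2 nuclear falls and 3 mitochondrial rises, macrophage-like and microglia-like cells 0 mitochondrial falls each, and the summed mitochondrial difference was 1.596 points in macrophage-like, 1.79 in microglia-like and -0.013 over all cells, where the nuclear one was -0.758. At the limit of 20% used above, the mitochondrial share over all cells averaged 10.05% in sham and 7.365% in infarction libraries. With no limit, T or NK-like cells had 0 nuclear rises, 9 falls, 9 mitochondrial rises and 0 falls; endothelial-like cells had 4 nuclear falls and microglia-like cells 2 mitochondrial falls. The summed mitochondrial difference was then 5.04 points in T or NK-like, 11.5 in endothelial-like and -3.74 over all cells, and the nuclear one -0.39 in endothelial-like cells.

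Without cells holding a cell cycle UMI, chosen after seeing the data, T or NK-like cells had 8 nuclear and 1 mitochondrial falls, macrophage-like cells 2 mitochondrial falls and microglia-like cells 4 mitochondrial rises. In microglia-like cells mitochondrial falls were 2 with no doublet removal, 0 with members among the variable genes and 0 with the unnamed shallow cluster, an alternative also added after seeing the data.

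Same-numbered libraries did not pair (correlations of their deviations from -0.094 to 0.106). A replicate block gave 2 nuclear rises in T or NK-like and 0 in endothelial-like cells and 1 mitochondrial rise over all cells, and called Cox4i2 in microglia-like cells (-2.10, edgeR adjusted p = 0.000536).

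Leaving out each library, nuclear rises ranged from 55 to 65 in microglia-like, 65 to 69 in macrophage-like, 0 to 3 in T or NK-like and 0 to 1 in endothelial-like cells and 12 to 19 over all cells; falls from 2 to 3, 2 to 4, 2 to 4, 0 to 0 and 24 to 44. Mitochondrial rises ranged from 7 to 9, 6 to 9, 0 to 5, 9 to 10 and 1 to 3, and falls from 0 to 2, 0 to 3, 0 to 2, 0 to 0 and 3 to 5. Against microglia-like cells, nuclear genes higher and lower ranged from 31 to 46 and 2 to 5 in macrophage-like, 1 to 1 and 19 to 37 in T or NK-like and 1 to 1 and 17 to 29 in endothelial-like cells. Mitochondrial ones ranged from 1 to 3 and 0 to 1, 0 to 1 and 1 to 1, and 9 to 9 and 0 to 0.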
